A study of Homo sapiens with 12 samples.

Results

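HepG2 cells, a human hepatoma line that keeps many features of hepatocytes, were given KLA and set against cells given the vehicle DMSO. The comparison covers 6 RNA-seq libraries of the 12 in the series, chosen by their treatment label: 3 from cells given KLA at 100 ng/µl and 3 from cells given DMSO at 0.1%. The other 6 libraries, 3 from cells given KLA together with 50 nM dexamethasone, a synthetic glucocorticoid (DexKLA), and 3 from cells given dexamethasone without KLA (Dex), share no library with this comparison and are used to set the same change beside it. Cells of all 4 groups carried the WT genotype, were held in medium with charcoal-stripped serum for 24 h and were collected 24 h after treatment began. Charcoal stripping takes steroid hormones out of serum. The labels do not say whether KLA-treated cells also received DMSO, nor whether replicates came from separate cultures, so p-values here speak only for the scatter among the libraries sequenced, whatever its source. Levels are CPM (read counts scaled to a common library total) after TMM, a normalisation that assumes most genes keep their level. Changes are log2 KLA minus DMSO with a standard error (SE), and a gene is called when edgeR's quasi-likelihood test on all 12 libraries gives it a Benjamini-Hochberg adjusted p under 0.05.

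KLA is the field's short name for Kdo2-lipid A, the part of bacterial lipopolysaccharide (LPS) that immune cells sense, although the labels do not spell it out. LPS is carried by LBP, handed over by CD14 and recognised by TLR4 with its partner MD-2, the product of LY96. The adaptors MYD88 with TIRAP, and TICAM1 with TICAM2, then switch on kinases that release NF-kB from its inhibitors, and NF-kB induces chemokines, survival genes and its own inhibitors. In liver, macrophages answer LPS with cytokines such as IL-6, and hepatocytes then make acute-phase plasma proteins.

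The libraries differed in more than treatment. Total counts assigned to genes were 15998657 to 20933501 in KLA libraries, against 3317740 to 5277463 in DMSO libraries, so that depth and treatment cannot be told apart within these 6 libraries. DMSO replicate 1 was the shallowest and lay farthest out on the first principal component of all 12 libraries, at -39.6, with the other DMSO libraries at -15.6 and -16.9 and the KLA libraries at 4.61 to 23.4. KLA replicate 3 held the far end at 23.4. Levels also leaned with transcript length. Across 13166 genes, a library's log2 deviation from the mean of all libraries was rank-correlated with transcript length. The correlation was -0.526 in KLA replicate 3 and -0.175 and -0.152 in KLA replicates 1 and 2, against 0.192 to 0.395 in DMSO libraries. All 10 hepatocyte markers were expressed, summing (in CPM before TMM, as for the marker sums that follow) to 119200 to 127600 CPM in KLA libraries, against 100300 to 115000 CPM in DMSO libraries. Of 12 macrophage markers, CD163, ADGRE1, MARCO, C1QA and C1QB were at 0 counts in all 12 libraries, and the list summed to 4354 to 4700 CPM in KLA libraries, against 4014 to 4568 CPM in DMSO libraries, nearly all of it LYZ (lysozyme). KDR, TEK and ERG of 9 endothelial markers were at 0 (5.43 to 6.07 CPM in all, against 5.12 to 5.69 CPM), as was the collagen gene COL1A2 of 10 stellate cell and fibroblast markers (41.6 to 51.5 CPM, against 48.7 to 55.2 CPM). Of 7 bile duct markers CFTR was at 0, and their sum of 1027 to 1210 CPM in KLA libraries, against 897.8 to 927.3 CPM in DMSO libraries, held SPP1 (osteopontin), which rose with KLA by 0.53 ± 0.12 (adjusted p = 0.0109, 0.0732 without DMSO replicate 1); the part of these marker levels in the results below was not tested.

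Between KLA and DMSO libraries, 1806 of 13166 genes tested differed in level (13.7%), with 1024 higher (7.78%) and 782 lower (5.94%) in KLA libraries. The changes were small: the median size among called genes was 0.4952 on the log2 scale, and only 14 rose and 13 fell by more than 2-fold. Leaving out DMSO replicate 1 cut the count to 5 genes, with 3043 at an unadjusted p under 0.05. All 1806 genes kept their sign, which is no separate support because they were picked in mostly the same libraries. Leaving out DMSO replicate 2, DMSO replicate 3 or KLA replicate 3 left 897, 895 and 591 calls. A term for deep and shallow libraries, which the Dex and DexKLA groups make estimable because each holds both kinds, left 4 calls. Scaling by library size alone turned the split round, with 534 higher and 1719 lower, so that 23.7% of calls were higher against 56.7% under TMM, while the median over all genes moved to -0.13, against -0.02 under TMM. In cells that also received dexamethasone, DexKLA against Dex gave 0 calls by edgeR, DESeq2 and limma voom, with 935 genes at an unadjusted p under 0.05 by edgeR.

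**Figure D1:**
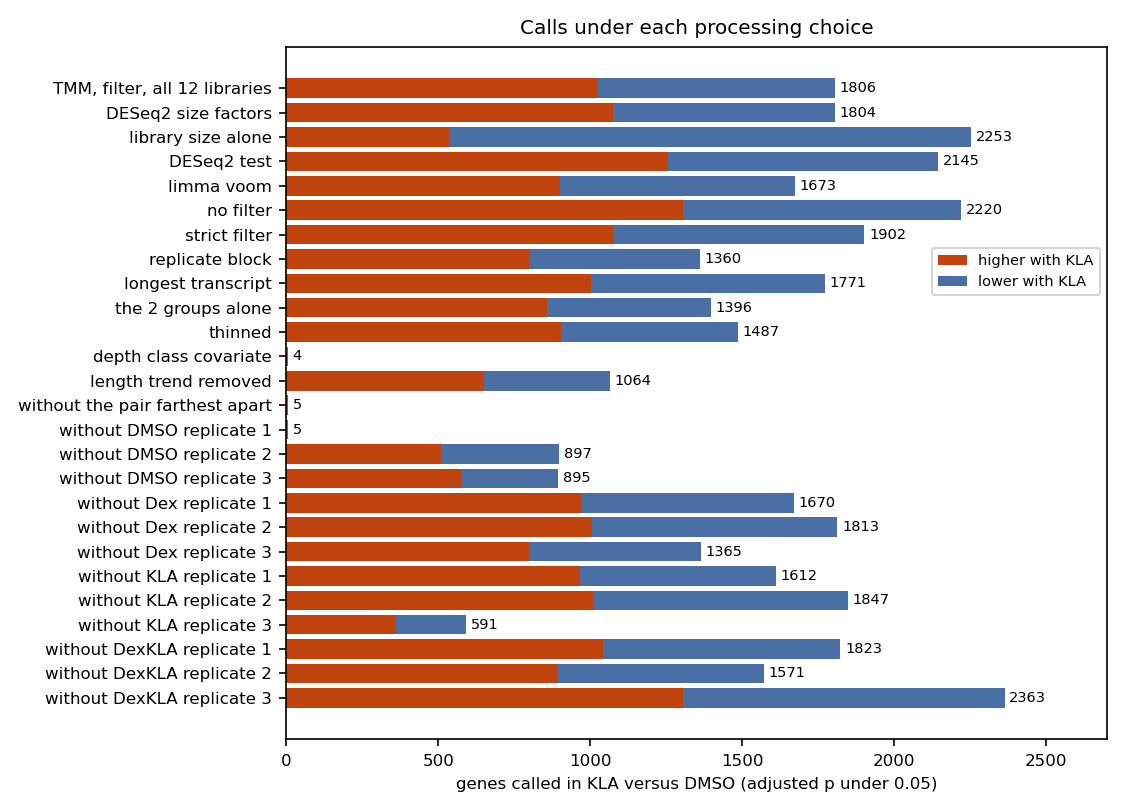
Number of genes called in KLA versus DMSO (horizontal axis) under each processing choice (rows), split into higher with KLA (red) and lower with KLA (blue). The fit of all 12 libraries called 1806, and the fits without DMSO replicate 1 and with a depth term called 5 and 4.

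Called in the full fit and in each of the 12 fits that left out a library were 5 genes, 0.038% of those tested: IER3 and RASSF7 higher (0.0152%), and CYP24A1, FGA and PRKAR1A lower (0.0228%). RASSF7 and PRKAR1A were singled out after their values were seen, because they passed all of these fits.

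IER3 is an early response gene that NF-kB induces and that modulates cell survival. It lies at chr6:30743199-30744547 on the minus strand of hg38. Its level was 186, 131 and 150.3 CPM in KLA libraries, against 86.7, 78.04 and 78.8 CPM in DMSO libraries. Every KLA library was higher than all 9 libraries of the other groups, since DexKLA libraries had 106, 112 and 84.7 CPM and Dex libraries had 105, 94.6 and 96.1 CPM. The rise was 0.94 ± 0.13 (adjusted p = 0.0011), and the call held without DMSO replicate 1 (adjusted p = 0.0154) and with the depth term (0.0339). The annotation gives IER3 a copy number of 6, which need not mean separate genes. IER3 shares 359 exonic bases with IER3-AS1 on the other strand. Whether counting used strand is not given in the sources used here, so reads of such pairs cannot be told apart.

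RASSF7 encodes a Ras-association domain protein, at chr11:560970-564025 on the plus strand, with an annotated copy number of 2. Its level was 56.9, 50.1 and 56.7 CPM in KLA libraries, against 38.01, 31.2 and 33.6 CPM in DMSO libraries, and the groups did not overlap. The rise was 0.68 ± 0.12 (adjusted p = 0.00814, 0.0391 without DMSO replicate 1, 0.163 with the depth term). DexKLA libraries averaged 47.5 ± 3.44 CPM and Dex libraries 45.1 ± 4.35 CPM (SD, n = 3 each), between the KLA and DMSO means.

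CYP24A1, the mitochondrial enzyme that breaks down active vitamin D, had the largest fall of all called genes. Its level was 9.87, 11.3 and 6.31 CPM in KLA libraries, against 57.2, 20.5 and 40.8 CPM in DMSO libraries, with DMSO replicate 1 the highest. The change was -2.08 ± 0.25 (adjusted p = 0.000357), and -1.73 without DMSO replicate 1 (adjusted p = 0.0137). DexKLA libraries had 12.8, 10.2 and 13.2 CPM and Dex libraries had 11.1, 11.2 and 10.8 CPM. The DMSO libraries therefore lay above all 9 others, with or without KLA. The gene spans chr20:54153446-54173986 on the minus strand.

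FGA, the alpha chain of fibrinogen and one of the classical acute-phase proteins, fell as well. KLA libraries had 1057, 1034 and 1066 CPM, against 2210, 1575 and 1877 CPM in DMSO libraries, a change of -0.84 ± 0.12 (adjusted p = 0.0011, 0.0175 without DMSO replicate 1 and 0.088 with the depth term). The partner chains of fibrinogen were not called: FGB had 1320 ± 21.8 CPM in KLA libraries and 1346 ± 169.7 CPM in DMSO libraries (SD, n = 3 each; adjusted p = 0.892), and FGG had 3253 ± 124 CPM and 3299 ± 373 CPM in the same order (adjusted p = 0.93). FGA averaged 906 ± 80.5 CPM in DexKLA libraries and 948 ± 15.02 CPM in Dex libraries. FGA lies at chr4:154585275-154590742 on the minus strand.

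PRKAR1A, the type I alpha regulatory subunit that holds protein kinase A inactive until cyclic AMP binds, had 212, 199 and 193 CPM in KLA libraries, against 363, 305 and 361 CPM in DMSO libraries. The change was -0.77 ± 0.11 (adjusted p = 0.0011, 0.0175 without DMSO replicate 1, 0.0905 with the depth term). DexKLA libraries averaged 236 ± 16.7 CPM and Dex libraries 228 ± 22.7 CPM, so here too the DMSO libraries were the high ones among the 4 groups. The gene lies at chr17:68512379-68533429 on the plus strand and shares 546 exonic bases with AC007780.1 on the same strand.

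**Figure D2:**
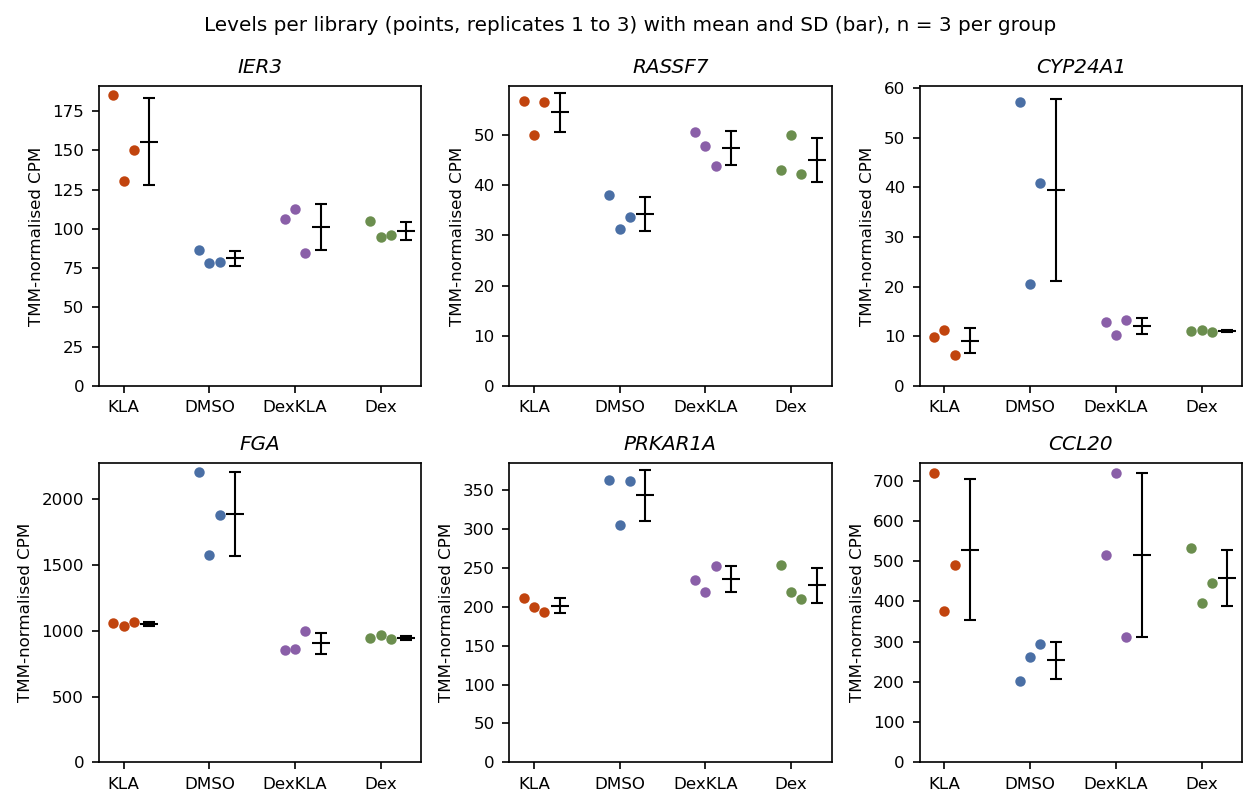
Level of IER3, RASSF7, CYP24A1, FGA, PRKAR1A and CCL20 in each library (points, TMM-normalised CPM, linear axes from 0) of the KLA, DMSO, DexKLA and Dex groups, with the mean and SD of 3 libraries (bars). Every KLA library is above all 9 others for IER3, and every DMSO library is above all 9 others for CYP24A1, FGA and PRKAR1A.

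The LPS receptor was barely expressed. TLR4 had 8, 9 and 5 counts in KLA libraries, against 1, 1 and 4 counts in DMSO libraries, too few to be tested. These are raw counts from library totals of 15998657 to 20933501 (KLA) and 3317740 to 5277463 (DMSO). They therefore do not show a difference in TLR4 level. LBP, the TLR4-like receptor gene CD180 and LY86, the gene of its partner protein, had 0 counts in all 6 libraries, which allows up to 0.143 to 0.188 CPM in KLA libraries and 0.568 to 0.904 CPM in DMSO libraries (3 counts, counting error only). LY96 was low, at 2.12, 1.88 and 3.13 CPM in KLA libraries, against 1.13, 1.44 and 1.53 CPM in DMSO libraries, and its difference of 0.77 ± 0.40 did not pass the test (adjusted p = 0.191). CD14 fell: it had 3.08, 3.58 and 1.79 CPM in KLA libraries, against 10.7, 3.95 and 4.58 CPM in DMSO libraries (-1.10 ± 0.33, adjusted p = 0.0332). That call was lost without DMSO replicate 1, the highest of the 6 (adjusted p = 0.323), and without KLA replicate 3, the lowest (0.0971). These are bulk libraries, in which fewer cells expressing a gene and less RNA per cell cannot be told apart.

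Of 21 tested TLR adaptors and kinases, 2 rose, 2 fell and 17 were not called, 19.05% called against 13.7% of all genes. TBK1, the kinase downstream of TICAM1, rose to 55.2 ± 2.82 CPM in KLA libraries, against 38.7 ± 4.83 CPM in DMSO libraries (0.50 ± 0.12, adjusted p = 0.0136). UBE2N, the ubiquitin-conjugating enzyme that works with TRAF6, rose by 0.55 ± 0.12 (adjusted p = 0.0105). TAB2, which links TRAF6 to the kinase TAK1, changed by -0.46 ± 0.12 and TRAF3 by -0.58 ± 0.15 (adjusted p = 0.0174 and 0.0195). None of the 4 was called without DMSO replicate 1 (adjusted p 0.087, 0.0743, 0.087 and 0.106), and TAB2 and TRAF3 were also lost without KLA replicate 3 (0.0537 and 0.0578). UBE2N shares exonic bases with NUDT4 and TBK1 with AC135279.3, both on the other strand. The adaptors MYD88 (-0.18 ± 0.13), TIRAP (-0.33 ± 0.20) and TICAM1 (-0.29 ± 0.23) were not called (adjusted p 0.354, 0.266 and 0.417).

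No NF-kB subunit or inhibitor was called: edgeR gave 0 of 13 tested, with 1 at an unadjusted p under 0.05, DESeq2 and limma voom gave 0 as well, and the median change was -0.12 against -0.02 for all genes. Scaling by library size alone and removing the length trend called 1 member each, lower in both. RELA, the transactivating subunit, averaged 36.9 ± 0.738 CPM in KLA libraries and 44.6 ± 7.11 CPM in DMSO libraries (-0.27 ± 0.12, adjusted p = 0.128). NFKB1, the precursor of p50, had 26.2 ± 3.12 CPM and 31.01 ± 4.43 CPM in the same order (adjusted p = 0.219). The inhibitors that NF-kB itself induces stood at 66.3 ± 2.09 CPM in KLA libraries and 74.5 ± 6.78 CPM in DMSO libraries for NFKBIA (adjusted p = 0.288), and at 16.3 ± 1.501 CPM and 16.7 ± 1.57 CPM for TNFAIP3 (adjusted p = 0.861).

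CCL20, the chemokine that attracts CCR6-bearing lymphocytes and dendritic cells, was the only NF-kB target chemokine or cytokine called of 6 tested (7.78% of all genes were called higher; 3 of the 6 were called without KLA replicate 2). It had 719, 376 and 489 CPM in KLA libraries, against 203, 262 and 295 CPM in DMSO libraries. All KLA libraries were higher, with KLA replicate 1 well above the other KLA libraries, and the rise was 1.06 ± 0.23 (adjusted p = 0.0107). The call held with the depth term (adjusted p = 0.0339) and was lost without DMSO replicate 1 (0.92, adjusted p = 0.0773). DexKLA libraries had 516, 718 and 312 CPM and Dex libraries had 533, 396 and 447 CPM, so that these groups overlapped and all 6 lay above the DMSO libraries. CXCL8, the neutrophil chemokine, was weakly expressed, at 2.69, 1.88 and 3.07 CPM in KLA libraries, against 1.13, 1.44 and 1.31 CPM in DMSO libraries, and its difference of 0.94 ± 0.36 did not pass the test (adjusted p = 0.0761). Of the 20 listed chemokines and cytokines, 14 were too low to test, and CXCL1, CXCL3, CXCL6, CCL2, IL6, IL1B and CSF2 had 0 counts in all 6 libraries. With the depth term the called genes were IER3, CCL20 and CYP24A1, described above, and DNAJC12, singled out after its values were seen. DNAJC12, a co-chaperone of aromatic amino acid hydroxylases, had 51.02, 43.4 and 55.7 CPM in KLA libraries, against 20.8, 27.3 and 29.3 CPM in DMSO libraries (0.94 ± 0.16, adjusted p = 0.00675), and its call was lost without DMSO replicate 1.

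Promoter sequence is given for CCL20 and, because they are textbook NF-kB targets that did not pass the test here, for NFKBIA and TNFAIP3. Each line shows the 120 bases before the RefSeq start on GRCh38.p14, 5′ to 3′ on the gene's own strand, with matches to GGGNNNTTCC, an NF-kB consensus searched on both strands, in capitals. All of the matches lie on the opposite strand and are printed as they read on the gene's strand.
CCL20: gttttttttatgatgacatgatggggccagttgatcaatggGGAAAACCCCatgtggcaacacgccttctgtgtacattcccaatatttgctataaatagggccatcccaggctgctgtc
NFKBIA: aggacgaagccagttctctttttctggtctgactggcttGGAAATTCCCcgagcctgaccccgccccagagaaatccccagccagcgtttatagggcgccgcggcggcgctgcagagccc
TNFAIP3: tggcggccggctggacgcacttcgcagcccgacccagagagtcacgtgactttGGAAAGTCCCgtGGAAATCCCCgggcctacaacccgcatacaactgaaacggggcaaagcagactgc
The windows are chr2:227813722-227813841 (plus strand), chr14:35404750-35404869 (minus strand) and chr6:137867139-137867258 (plus strand). The match in CCL20 begins 79 bases before the start and that in NFKBIA 81 bases before it, while TNFAIP3 holds 2 matches, which begin 67 and 55 bases before it. Across 35116 RefSeq promoter windows of 300 bases, 2289 (6.52%) held the motif. A match is a description of these letters, and it was present in CCL20, which rose, and in NFKBIA and TNFAIP3, which were not called. IER3 had no entry among the RefSeq promoters used, so its sequence is not shown.

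Among 11 tested NF-kB target effectors, IER3 and BIRC2 rose, C3 fell and 8 were not called (27.27% called, against 13.7% of all genes; 1 call without DMSO replicate 1). BIRC2, an inhibitor of apoptosis, averaged 129 ± 4.85 CPM in KLA libraries and 101 ± 12.6 CPM in DMSO libraries (0.35 ± 0.11, adjusted p = 0.0354); its call was lost without DMSO replicate 1, DMSO replicate 2, KLA replicate 1 or KLA replicate 3 (adjusted p 0.172, 0.0673, 0.0636 and 0.0854) and without Dex replicate 3. C3, the central complement protein, had 1662, 1695 and 1196 CPM in KLA libraries, against 2586, 2011 and 2230 CPM in DMSO libraries, a change of -0.58 ± 0.13 (adjusted p = 0.0114, 0.0792 without DMSO replicate 1). SOD2, the mitochondrial superoxide dismutase, stood at 266 ± 7.17 CPM and 282 ± 19.2 CPM in the same order (adjusted p = 0.559). SAA1, a strongly inducible acute-phase gene with a near-identical copy in SAA2, had 0 counts in all 6 libraries.

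Acute-phase plasma proteins moved both ways. Of 21 tested, ORM1 and ORM2 rose and FGA and A2M fell, 19.05% called, and the list median was -0.02, the same as for all genes. ORM1 (orosomucoid 1) had 201, 193 and 254 CPM in KLA libraries, against 161, 166 and 172 CPM in DMSO libraries (0.37 ± 0.11, adjusted p = 0.0308). Its near-identical neighbour ORM2 changed by 0.39 ± 0.12, and reads of the pair may have been shared. A2M (alpha-2-macroglobulin) had 3016, 2848 and 2442 CPM in KLA libraries, against 4353, 3634 and 4007 CPM in DMSO libraries (-0.53 ± 0.13, adjusted p = 0.0139). ORM1 and ORM2 were not called once the length trend was removed (adjusted p 0.617 and 0.581), nor without any 1 of the DMSO libraries or KLA replicate 3. The list had 1 call without DMSO replicate 1 or KLA replicate 3, 2 without DMSO replicate 2 or 3, and 7 without DexKLA replicate 3. A2M was lost without DMSO replicate 1 (0.0853) and KLA replicate 3 (0.0578). CRP, the clinical acute-phase marker, had 0 counts in all 6 libraries. Coagulation and complement genes had 1 rise and 5 falls among 35 tested, 17.14% called, against 13.7% of all genes. Their median of -0.07 was -0.187 under library size alone and, over the fits without 1 library, ranged from -0.139 without DMSO replicate 2 and -0.122 without KLA replicate 1 to -0.0425 without KLA replicate 3 and -0.0197 without DMSO replicate 1. CPB2, which slows clot breakdown, rose by 0.56 ± 0.12, while MBL2, the mannose-binding lectin, fell by 0.66 ± 0.16 (adjusted p 0.0103 and 0.0141, and 0.0732 and 0.0894 without DMSO replicate 1). Leaving out DMSO replicate 1 left 0 calls by edgeR in this list, with 11 at an unadjusted p under 0.05; leaving out DMSO replicate 3 or KLA replicate 3 left 3 each, and leaving out DexKLA replicate 3 gave 11.

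Several receptors through which hepatocytes sense inflammatory cytokines fell. Of 14 tested genes of IL-6 receptor and STAT3 signalling, 4 fell and none rose (28.57% called lower, against 5.94% of all genes), 13 of 14 had a negative change, and the median was -0.27. IL6R, the ligand-binding IL-6 receptor chain, had 22.1, 21.4 and 17.5 CPM in KLA libraries, against 38.01, 24.4 and 32.7 CPM in DMSO libraries (-0.63 ± 0.15, adjusted p = 0.0129). OSMR, the oncostatin M receptor, which shares exonic bases with RICTOR on the other strand, fell to 44.9 ± 7.61 CPM in KLA libraries, against 67.2 ± 9.98 CPM in DMSO libraries (-0.58 ± 0.14). JAK1, the kinase bound to these receptors, changed by -0.44 ± 0.12 (adjusted p = 0.0225), and the interleukin-1 receptor gene IL1R1, named after its values were seen, by -0.55 ± 0.16 (adjusted p = 0.0256). STAT3 itself missed the threshold (-0.38 ± 0.13, adjusted p = 0.0515). The 1 member with a positive change, SOCS2, a feedback inhibitor of cytokine signalling, averaged 1.51 ± 0.0838 CPM in KLA libraries and 0.799 ± 0.127 CPM in DMSO libraries (0.90 ± 0.40, under 0.05 unadjusted, adjusted p = 0.122); it was singled out after its values were seen. In the fit without DMSO replicate 1 none of the 14 was called by edgeR, with 7 lower at an unadjusted p under 0.05, and the median was -0.36. Leaving out DMSO replicate 3 left 2 calls and KLA replicate 3 left 1, as removing the length trend left 2. With the depth term 0 of the 14 were called by edgeR, with 3 lower at an unadjusted p under 0.05. In that fit 10 changes were negative and 4 positive, and the median was -0.186. The list's median transcript length was 5047.5 bases, against 3130 bases for all genes. In DexKLA against Dex the median of these genes was 0.15.

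Genes of fatty acid and triglyceride synthesis had the largest share of called falls among the lists with at least 10 tested members. All 23 tested members had a negative change, 9 were called lower (39.13%, against 5.94% of all genes), none was called higher, and the median was -0.35. FASN, the synthase that builds palmitate, had 813, 904 and 683 CPM in KLA libraries, against 1776, 1139 and 1277 CPM in DMSO libraries. The groups did not overlap, DMSO replicate 1 was the highest, and the change was -0.80 ± 0.16 (adjusted p = 0.00911). ACACA, which makes the malonyl-CoA that FASN uses, had 56.3, 59.2 and 43.2 CPM in KLA libraries, against 106, 79.3 and 82.5 CPM in DMSO libraries (-0.75 ± 0.14, adjusted p = 0.00814). ELOVL5, an elongase of polyunsaturated fatty acids, had 74.7, 77.98 and 78.8 CPM in KLA libraries, against 109, 99.9 and 110.4 CPM in DMSO libraries (-0.46 ± 0.10, adjusted p = 0.0109). SREBF1, the transcription factor gene that drives this pathway, and SCD, the stearoyl-CoA desaturase, are named after their values were seen: they changed by -0.66 ± 0.15 and -0.52 ± 0.12 (adjusted p 0.0109 and 0.0117). With the length trend removed 6 members were called and the median was -0.26. In the fit without DMSO replicate 1 the list had 0 calls by edgeR, 12 members lower at an unadjusted p under 0.05, and a median of -0.28; FASN was then -0.59 (adjusted p = 0.0724), ACACA -0.61 (0.0724) and ELOVL5 -0.45 (0.0724). The depth term left 0 calls by edgeR, 9 members lower at an unadjusted p under 0.05 and a median of -0.34. In DexKLA against Dex the median was 0.06, with FASN at 926 ± 216 CPM and 916 ± 17.7 CPM.

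Fat oxidation and glucose release also held called genes. CPT1A, which admits long-chain fatty acids to mitochondria, had 40.8, 32.1 and 38.5 CPM in KLA libraries, against 83.9, 52.9 and 84.04 CPM in DMSO libraries. This was a change of -0.98 ± 0.15 (adjusted p = 0.00452, 0.0711 without DMSO replicate 1). PPARA, the nuclear receptor that induces fatty acid oxidation genes, changed by -0.65 ± 0.17, while ACAA1, the peroxisomal thiolase, rose by 0.36 ± 0.09. The list of fatty acid oxidation and ketogenesis genes had 1 rise and 3 falls among 21 tested, 19.05% called, against 13.7% of all genes. G6PC, the last enzyme of glucose release, had 44.7, 48.6 and 31.7 CPM in KLA libraries, against 121, 60.1 and 89.7 CPM in DMSO libraries (-1.10 ± 0.18, adjusted p = 0.00675). PCK1, the enzyme that commits carbon to gluconeogenesis, had 35.9, 27.9 and 29.98 CPM in KLA libraries, against 74.3, 40.9 and 53.5 CPM in DMSO libraries (-0.83 ± 0.19, adjusted p = 0.0109). CPS1, the entry enzyme of the urea cycle, changed by -0.45 ± 0.14, whereas ARG1, its last enzyme, rose by 0.50 ± 0.15 and GPT, alanine aminotransferase, by 0.77 ± 0.23. In all, 2 rose and 4 fell among 17 tested genes of gluconeogenesis and amino acid catabolism (35.29% called). Neither list had a call by edgeR without DMSO replicate 1 (7 and 6 members at an unadjusted p under 0.05), where G6PC was -0.84 (adjusted p = 0.0724) and PCK1 -0.59 (0.0916). Counts without DMSO replicate 2, DMSO replicate 3 and KLA replicate 3 were 3, 1 and 2 for the oxidation list and 2, 3 and 2 for the gluconeogenesis list; with the length trend removed they were 1 and 2. Cholesterol synthesis had 2 rises and 0 falls among 20 tested by edgeR (7.78% of all genes were called higher), with IDI1 at 0.55 ± 0.13 (adjusted p = 0.0142, 0.0964 without DMSO replicate 1, 0.0807 without KLA replicate 3) and SC5D at 0.35 ± 0.11; 2 members were lower at an unadjusted p under 0.05, and the median of 0.07 became -0.04 under library size alone, -0.06 with the length trend removed or with the depth term, and -0.08 without KLA replicate 3; it was 0.03 and 0.04 without DMSO replicates 3 and 1 and 0.14 and 0.13 without KLA replicates 1 and 2. Its count was 0 without DMSO replicate 1 or KLA replicate 3, 1 without DMSO replicate 2, Dex replicate 3 or DexKLA replicate 2, and 4 without DexKLA replicate 3.

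The transcription factors that set hepatocyte identity were lower where they moved. Of 22 tested, 6 fell and none rose (27.27% called lower, against 5.94% of all genes), 18 had a negative change, and the median was -0.27. CEBPA had 252, 273 and 215 CPM in KLA libraries, against 372, 292 and 347 CPM in DMSO libraries (-0.45 ± 0.12, adjusted p = 0.0201). HNF4A had 194, 189 and 168 CPM in KLA libraries, against 254, 224 and 238 CPM in DMSO libraries (-0.38 ± 0.10, adjusted p = 0.0226). FOXA1 had 59.2, 60.2 and 47.8 CPM in KLA libraries, against 72.4, 77.5 and 71.2 CPM in DMSO libraries (-0.40 ± 0.11, adjusted p = 0.0257). The groups did not overlap for any of these genes, a pattern that 18.3% of all genes showed in this direction. In Dex libraries, without KLA, CEBPA had 197, 191 and 172 CPM, below all KLA and DMSO libraries. FOXA1 had 69.6, 60.6 and 60.7 CPM there, and HNF4A 225, 193 and 217 CPM. Before TMM, the list summed to 1072 to 1192 CPM in Dex libraries, 968 to 1197 CPM in KLA libraries and 1379 to 1594 CPM in DMSO libraries. In DexKLA against Dex the list median was -0.04. The count fell to 2 without DMSO replicate 2 and to 0 without DMSO replicate 1, DMSO replicate 3 or KLA replicate 3, with medians of -0.365 without DMSO replicate 2 and -0.254, -0.265 and -0.213 for the other fits. In the fit without DMSO replicate 1, 8 members were lower and 1 higher at an unadjusted p under 0.05. Library size alone gave 11 falls. With the depth term the median was -0.144, with 15 negative changes, 0 calls by edgeR, and 4 lower and 2 higher at an unadjusted p under 0.05. HNF4A was not called once the length trend was removed (adjusted p = 0.138), and 3 members were. Hepatocyte products did not follow one direction: AFP, the fetal albumin-like protein, rose to 21770 ± 777 CPM in KLA libraries, against 15270 ± 1379 CPM in DMSO libraries (0.51 ± 0.15, adjusted p = 0.0304), a call lost in each of the 6 fits without a KLA or DMSO library (adjusted p 0.0522 to 0.147). APOB, the backbone of very-low-density lipoprotein, had 4102, 4577 and 2461 CPM in KLA libraries, against 5965, 5593 and 6601 CPM in DMSO libraries (-0.70 ± 0.20), and APOH rose by 0.55 ± 0.12, the only calls among 19 apolipoprotein and lipid transfer genes. APOB and APOH were not called without DMSO replicate 1 (adjusted p 0.0954 and 0.0743). That list had 1 call without DMSO replicate 3 or KLA replicate 3 and 6 without DexKLA replicate 3.

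Detoxification enzymes moved both ways. Of 24 tested genes of drug and steroid metabolism, 4 rose and 2 fell (13.7% of all genes were called), with a median of 0.11 that became -0.01 under library size alone and -0.02 with the length trend removed, and was 0.167, 0.178, 0.212 and 0.167 without DMSO replicate 1, DMSO replicate 3, KLA replicate 1 and KLA replicate 2. Without KLA replicate 3, 2 were called higher and 3 lower. AKR1B10, an aldo-keto reductase of retinal and lipid aldehydes, had 118, 107 and 129.6 CPM in KLA libraries, against 69.6, 87.9 and 76.8 CPM in DMSO libraries (0.59 ± 0.12, adjusted p = 0.00923). AKR1C3, which reduces steroids, rose by 0.58 ± 0.12 and UGT2B7, which conjugates steroids and drugs with glucuronic acid, by 0.62 ± 0.15; both have close family members among which reads may have been split. CYP1A1, the dioxin-inducible cytochrome, averaged 33.1 ± 2.34 CPM in KLA libraries, against 49.6 ± 8.46 CPM in DMSO libraries (-0.57 ± 0.14, adjusted p = 0.014). In the bile acid list, CYP8B1, the 12-alpha-hydroxylase that makes cholic acid, fell to 2.27 ± 0.756 CPM in KLA libraries, against 4.82 ± 0.393 CPM in DMSO libraries (-1.06 ± 0.29); its exons overlap those of ACKR2 on the other strand. SLC51B, a bile acid exporter subunit, changed by -0.71 ± 0.20 and SLC27A5, a bile acid ligase, by 0.47 ± 0.14. Of 18 tested NRF2 targets 14 had a negative change and the median was -0.15, with 4 called: NQO1 (0.36 ± 0.11) and NFE2L2 itself (0.37 ± 0.11) higher and OSGIN1 (-0.64 ± 0.19) and SRXN1 (-0.37 ± 0.12) lower. Once DMSO replicate 1 was left out CYP24A1 was the sole call in these 3 lists, and of the genes just named AKR1B10 had an adjusted p of 0.0724 and OSGIN1 of 0.31. The bile acid list had 1, 1 and 0 calls and the NRF2 list 1, 2 and 0 without DMSO replicate 2, DMSO replicate 3 and KLA replicate 3, and the NRF2 list had 2, 1 and 1 without KLA replicate 1, KLA replicate 2 and Dex replicate 3.

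Hypoxia-responsive and glycolytic genes were higher where they moved. Of 30 tested, 6 rose and none fell (7.78% of all genes were called higher), and the median was 0.15. ANKRD37, a target of hypoxia-inducible factor, had 25.96, 12.1 and 28.8 CPM in KLA libraries, against 5.07, 9.69 and 9.17 CPM in DMSO libraries. KLA replicate 2 lay close to the DMSO libraries while the other KLA libraries were above 25 CPM, and the rise was 1.43 ± 0.30 (adjusted p = 0.0105, 0.075 without DMSO replicate 1); its exons overlap those of UFSP2 on the other strand. ADM, the vasodilator adrenomedullin, averaged 10.4 ± 2.76 CPM in KLA libraries, against 5.20 ± 0.430 CPM in DMSO libraries (0.999 ± 0.25, adjusted p = 0.0157). BNIP3, a mitophagy receptor, had 571, 460.1 and 605 CPM in KLA libraries, against 302, 347 and 413 CPM in DMSO libraries (0.62 ± 0.14, adjusted p = 0.0122). All Dex libraries, which had no KLA, also lay above all DMSO libraries for these genes. They had 18.9, 16.3 and 16.3 CPM of ANKRD37, 9.98, 8.60 and 7.92 CPM of ADM, and 578, 573 and 559 CPM of BNIP3. In DexKLA against Dex the list median was 0.0185. The glycolytic genes ENO1 and TPI1 and the glucose transporter gene SLC2A3, named after their values were seen, rose by 0.39, 0.38 and 0.49. The number of calls was also 6 with the length trend removed, with a median of 0.14. In the fit without DMSO replicate 1 none was called by edgeR (6 higher at an unadjusted p under 0.05, median 0.07; the median was 0.09 without DMSO replicate 2 or KLA replicate 1 and 0.32 with the depth term), and without DMSO replicate 2, DMSO replicate 3, KLA replicate 1 and KLA replicate 3 the counts were 2, 3, 3 and 4, with 3 without Dex replicate 3. Under library size alone 3 were called and the median was 0.04, and the replicate block also left 3.

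Subunits of the respiratory chain and of the ribosome, both encoded by short transcripts, were higher where they moved. Of 33 nuclear-encoded oxidative phosphorylation subunits tested, 16 rose and none fell (48.48%, against 7.78% of all genes called higher). Of the 33, 26 had a positive and 7 a negative change, and the median was 0.34. COX5B, a subunit of cytochrome c oxidase, had 424, 414 and 554 CPM in KLA libraries, against 273, 296 and 308 CPM in DMSO libraries (0.67 ± 0.13, adjusted p = 0.00923). COX7C, of the same complex, rose by 0.66 ± 0.14 and ATP5PO, of ATP synthase, by 0.68 ± 0.13. Of 32 cytosolic ribosomal protein genes, 12 rose and none fell (37.5%), 31 had a positive change, and the median was 0.33. RPL35 had 549.7, 555 and 667 CPM in KLA libraries, against 338, 387 and 407 CPM in DMSO libraries (0.65 ± 0.14, adjusted p = 0.0109); RPL30 rose by 0.62 ± 0.13 and RPS14 by 0.59 ± 0.13. Ribosomal protein genes have many processed pseudogenes, between which reads may have been split. The median transcript lengths of the subunit and ribosomal lists were 1139 and 1109.5 bases, against 3130 bases for all genes. With the length trend removed, the subunits had 6 rises and 2 falls with a median of 0.16, and the ribosomal genes 4 rises and 1 fall with a median of 0.10. In the fit without DMSO replicate 1 neither list had a call by edgeR, with 19 and 20 members higher at an unadjusted p under 0.05 and medians of 0.31 and 0.34; without DMSO replicates 2 and 3 and KLA replicate 3 the subunits had 10, 8 and 6 calls and the ribosomal genes 6, 6 and 5, with 19 ribosomal calls without DexKLA replicate 3. The depth term left 0 calls by edgeR in both lists, with medians of 0.238 for the subunits and 0.265 for the ribosomal genes. In DexKLA against Dex their medians were -0.10 and -0.15. COX5B had 377, 453 and 422 CPM in Dex libraries, without KLA. Before TMM, the ribosomal genes summed to 28950 to 33190 CPM in Dex libraries, 30300 to 32480 CPM in KLA libraries and 26090 to 26860 CPM in DMSO libraries.

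Across all genes the change with KLA leaned with transcript length, from short genes higher to long genes lower. Over the 13166 genes, which do not stand for independent samples, log2 change and length had a rank correlation of -0.467. Among the 2635 shortest genes (47 to 1723 bases) 20.7% were called higher and 0.531% lower, and among the 2633 longest (5451 to 108857 bases) 2.01% were called higher and 16.7% lower. Median length was 1621.5 bases for genes called higher and 5826.5 bases for genes called lower. In the dexamethasone groups the lean was the other way, at 0.389 for DexKLA minus Dex. Single libraries differed within these groups. The correlation of a library's deviation with length was -0.534 in Dex replicate 2, against 0.137 and -0.148 in Dex replicates 1 and 3. It was 0.385 in DexKLA replicate 3, against -0.134 and 0.0917 in DexKLA replicates 1 and 2. With the depth term the rank correlation for KLA minus DMSO was -0.271. With each library's own length trend removed, 1064 genes were called, of which 749 were among the 1806, and IER3, RASSF7, CYP24A1, FGA, PRKAR1A and CCL20 were all among them (adjusted p 0.000157 to 0.04).

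**Figure D3:**
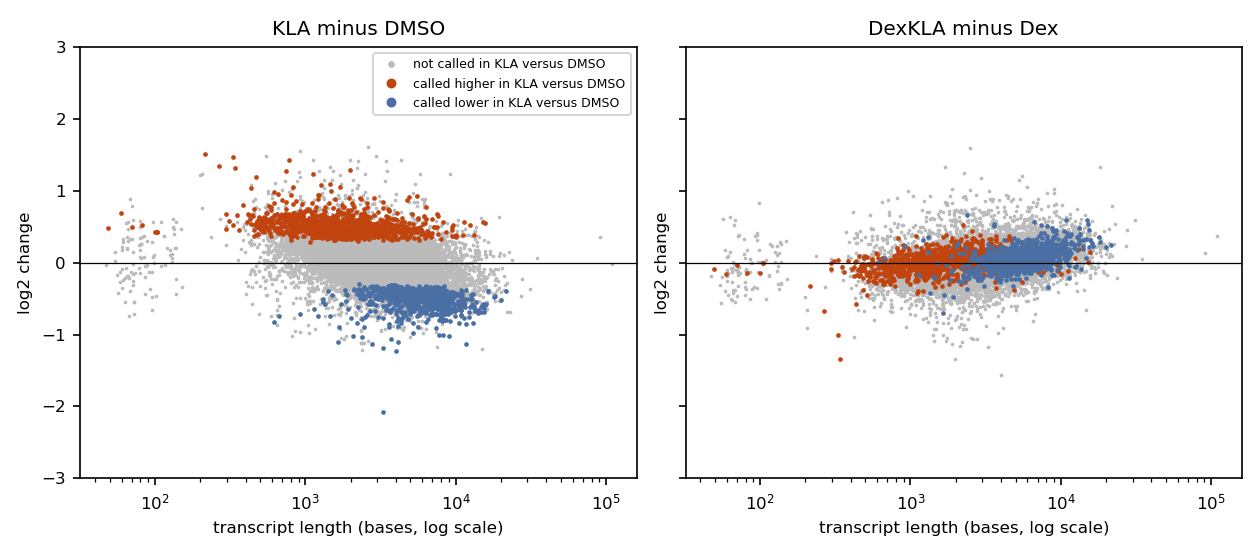
Log2 change of each of 13166 genes (vertical axis) against transcript length in bases (log axis), for KLA minus DMSO (left) and DexKLA minus Dex (right), coloured by the KLA versus DMSO call (red higher, blue lower, grey not called). The cloud falls with length on the left (rank correlation -0.467) and rises with length on the right (0.389).

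**Figure D4:**
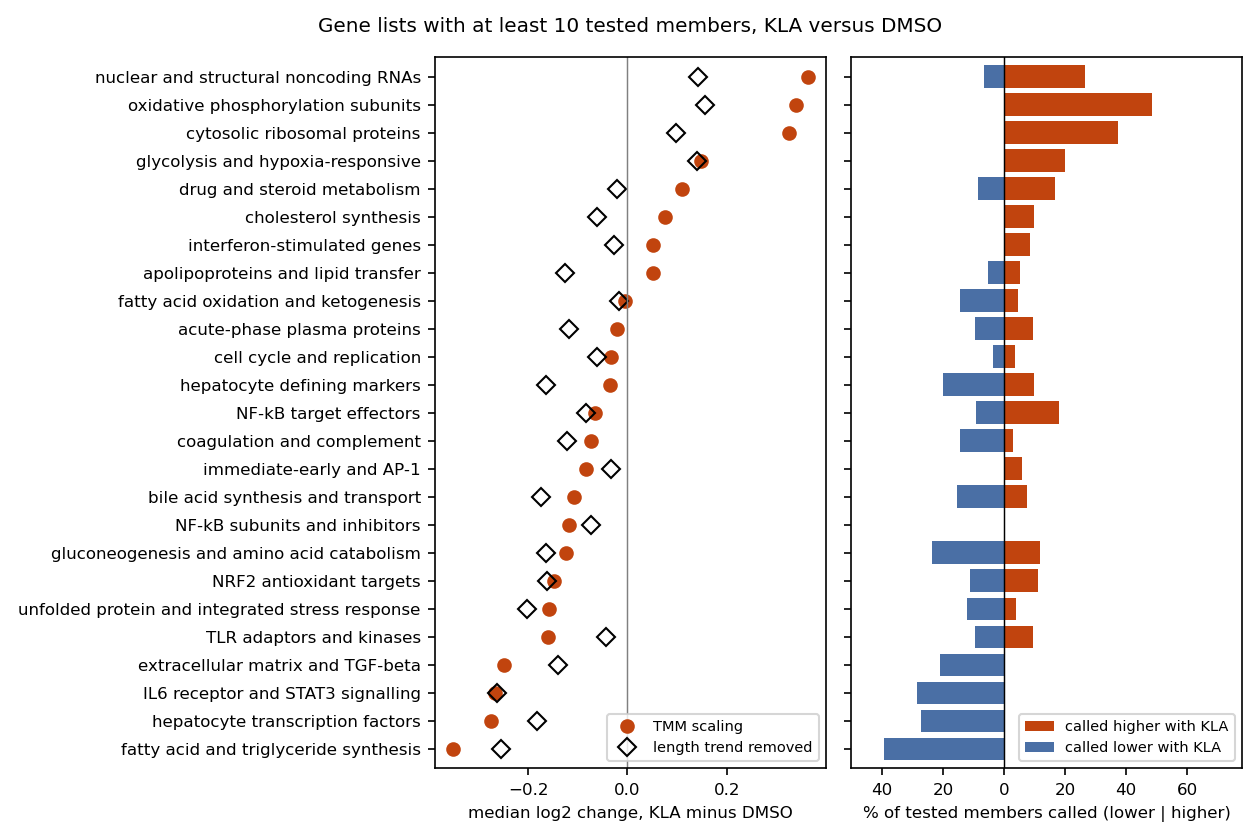
Gene lists with at least 10 tested members, ordered by median change. Left, median log2 change KLA minus DMSO under TMM scaling (dots) and with the length trend removed (diamonds); right, percent of tested members called lower (blue, left of 0) and higher (red, right of 0). Fatty acid synthesis lies lowest at -0.35 and noncoding RNAs highest at 0.36.

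Some short structural RNAs rose. Of 15 tested nuclear and structural noncoding RNAs, 4 rose (26.67%, against 7.78% of all genes), 1 fell (6.667%, against 5.94%) and 10 were not called, with a median of 0.36, or 0.14 with the length trend removed. RPPH1, the RNA part of the ribonuclease P enzyme that trims transfer RNAs, had 6.73, 6.67 and 5.25 CPM in KLA libraries, against 1.41, 1.44 and 4.58 CPM in DMSO libraries (1.32 ± 0.33, adjusted p = 0.0167). DMSO replicate 3 lay near the KLA libraries, and the call was lost without DMSO replicate 1 (0.0995) or DMSO replicate 2 (0.0957). RN7SK, which holds the elongation factor P-TEFb inactive, ranged over 24.5, 23.2 and 9.04 CPM in KLA libraries and 1.13, 5.20 and 13.3 CPM in DMSO libraries, and the groups overlapped (1.48 ± 0.45, adjusted p = 0.0336). RN7SL1, the RNA of the signal recognition particle, rose by 0.47 ± 0.12, while TUG1, a long nuclear RNA of 7648 bases, changed by -0.37 ± 0.12. Leaving out DMSO replicate 1 left no call by edgeR in this list (6 higher and 1 lower at an unadjusted p under 0.05), DMSO replicate 2 left 1, any 1 of DMSO replicate 3, KLA replicate 1, Dex replicate 3 and DexKLA replicate 2 left 3, and DexKLA replicate 3 gave 8.

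**Figure D5:**
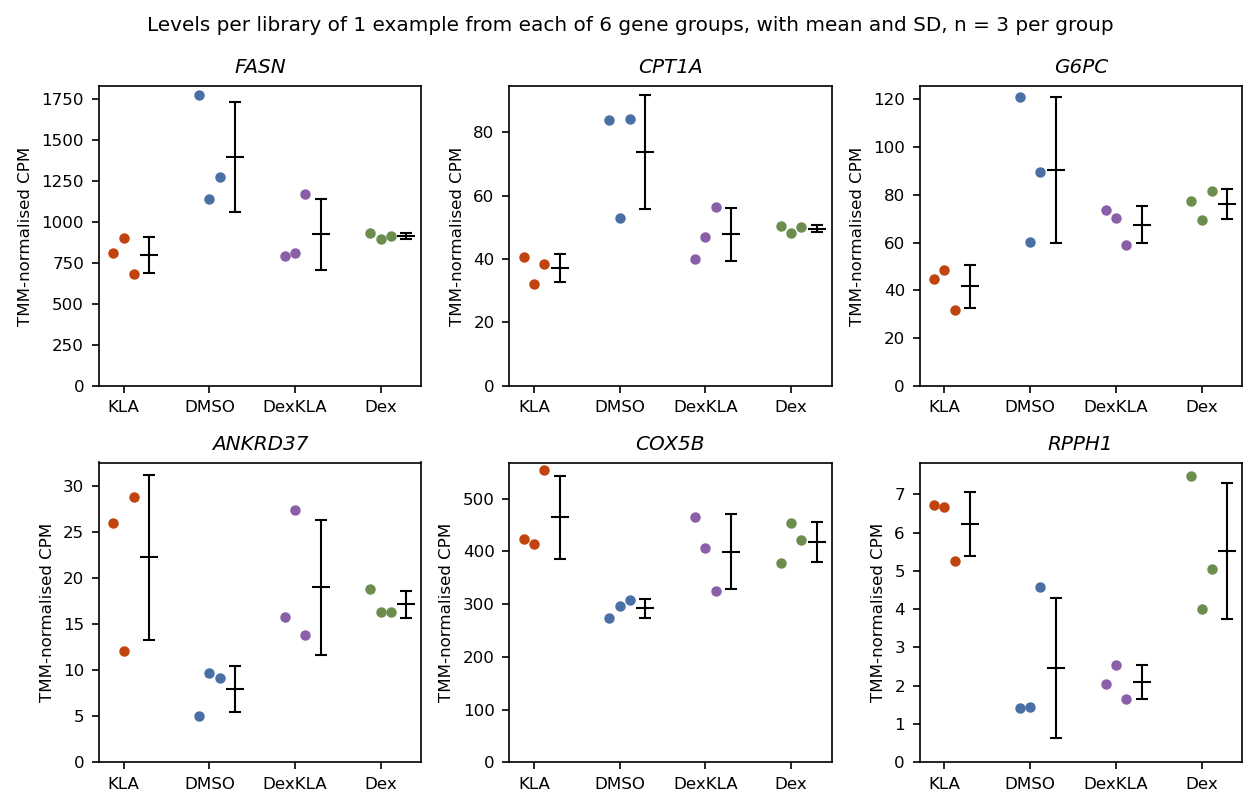
Level per library (points, TMM-normalised CPM, linear axes from 0) of FASN, CPT1A, G6PC, ANKRD37, COX5B and RPPH1 in the KLA, DMSO, DexKLA and Dex groups, with mean and SD of 3 libraries (bars). FASN, CPT1A and G6PC are lower and COX5B higher in all KLA libraries than in all DMSO libraries, while DexKLA and Dex libraries overlap for these 4 genes.

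The remaining lists held few calls or calls in both directions. Extracellular matrix and TGF-beta genes had 5 falls (20.83%, against 5.94% of all genes) and 0 rises among 24 tested by edgeR, with 1 member higher at an unadjusted p under 0.05 and a median of -0.25 that was -0.129 without KLA replicate 3 and -0.139 with the length trend removed; LAMC1, a laminin chain, had 96.4, 109 and 79.7 CPM in KLA libraries, against 174, 148 and 152 CPM in DMSO libraries (-0.73 ± 0.13, adjusted p = 0.00814, 0.0724 without DMSO replicate 1). These are long transcripts, with a median of 5416.5 bases; 1 was called after the length trend was removed, 1, 2 and 1 without DMSO replicate 2, DMSO replicate 3 and KLA replicate 3, and 3 without Dex replicate 1, Dex replicate 3 or DexKLA replicate 2, while library size alone gave 11 and the replicate block 2. The unfolded protein and integrated stress response had 1 rise and 3 falls among 25 tested, 16% called: HSPA5, the endoplasmic reticulum chaperone BiP, had 579 ± 55.3 CPM in KLA libraries and 822 ± 64.8 CPM in DMSO libraries (-0.51 ± 0.11), EDEM1 changed by -0.48 ± 0.12, HERPUD1 by -0.36 ± 0.11, and DDIT4, an inhibitor of mTORC1 signalling, rose by 0.59 ± 0.14. Interferon-stimulated genes had 2 rises among 23 tested (8.696%, against 7.78% of all genes), B2M (0.54 ± 0.12), the light chain of MHC class I, and IFI6 (0.57 ± 0.19), with a median of 0.05 that became -0.06 under library size alone, -0.03 with the length trend removed, -0.01 without KLA replicate 1 and 0.00375 without DMSO replicate 2. The only called gene among 17 immediate-early and AP-1 genes was DUSP6, a phosphatase that shuts off ERK and a readout of ERK activity, with 211, 214 and 174 CPM in KLA libraries, against 104, 134 and 127 CPM in DMSO libraries (0.71 ± 0.12, adjusted p = 0.00675, 0.0724 without DMSO replicate 1). Dex libraries, without KLA, had 268, 238 and 264 CPM of DUSP6, and DexKLA libraries 297, 299.5 and 245 CPM. Each of these lay above all KLA libraries. DUSP6 shares 1875 exonic bases with AC024909.2 on the other strand. Cell cycle genes had 1 rise, CDK1 (0.58 ± 0.13), and 1 fall, CCND1 (-0.33 ± 0.11), among 27 tested (7.407% called, against 13.7% of all genes). Of 20 listed symbols of replication-dependent histones, older and newer names of the same genes among them, 10 were found in the table and 8 tested; none of these 8 was called by edgeR, DESeq2 or limma voom, with 2 higher at an unadjusted p under 0.05 and 1 called without KLA replicate 3, while the histone gene HIST2H2AC, not on the list, was called higher. Leaving out DMSO replicate 1 left no call by edgeR in any of these lists. The stress response list had 1 and 2 calls without DMSO replicate 3 and KLA replicate 3 and 7 without DexKLA replicate 3, and the interferon and cell cycle lists each had 1 without DMSO replicate 2, DMSO replicate 3, KLA replicate 3 or any 1 Dex library. The interferon list also had 1 without DexKLA replicate 2 and the cell cycle list 1 without DexKLA replicate 1, while without DexKLA replicate 3 the interferon list had 5 higher and 2 lower and the cell cycle list 2 higher and 2 lower. NR3C1, the glucocorticoid receptor, averaged 26.4 ± 5.24 CPM in KLA libraries and 32.8 ± 3.81 CPM in DMSO libraries (adjusted p = 0.208).

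The largest changes outside these lists were mostly in weakly expressed genes. TSPAN8, a tetraspanin of epithelial and carcinoma cells, had 6.67, 7.05 and 9.49 CPM in KLA libraries, against 2.82, 3.41 and 3.49 CPM in DMSO libraries (1.24 ± 0.23, adjusted p = 0.00814). AGR2, a protein disulfide isomerase of secretory epithelia, had 29.7, 27.9 and 54.2 CPM in KLA libraries, against 13.5, 18.7 and 20.95 CPM in DMSO libraries (1.06 ± 0.21, adjusted p = 0.00911). ODAM, an odontogenic ameloblast-associated protein, and SCGN, the calcium-binding protein secretagogin, rose by 1.08 ± 0.22 and 1.09 ± 0.23. For AGR2, ODAM and SCGN the highest value of the 6 was in KLA replicate 3, at 54.2, 54.2 and 42.0 CPM, against 27.9 to 29.7, 28.7 to 31.4 and 22.8 to 26.7 CPM in the other KLA libraries. LINC02482, a long noncoding RNA, had 11.7, 9.28 and 9.88 CPM in KLA libraries, against 4.79, 4.31 and 4.37 CPM in DMSO libraries (1.20 ± 0.21, adjusted p = 0.00814). Dex libraries, without KLA, reached similar levels of LINC02482 (11.6, 9.58 and 9.24 CPM) and of AGR2 (39.4, 43.4 and 43.1 CPM). For TSPAN8, ODAM and SCGN the Dex means of 5.47, 27.2 and 18.1 CPM lay between the KLA and DMSO means. SNORD3A, a small nucleolar RNA of ribosomal RNA processing, CSTA, the cysteine protease inhibitor cystatin A, DNAAF4, a dynein assembly factor, and HIST2H2AC, a histone H2A gene, rose by 1.52, 1.27, 1.29 and 1.05 at group means of at most 3.19 CPM. Among the falls, AFAP1, an actin filament-associated protein, fell to 5.27 ± 0.663 CPM in KLA libraries, against 10.8 ± 2.34 CPM in DMSO libraries (-1.005 ± 0.21). ASIC1, a proton-gated sodium channel, FBN1, the microfibril protein fibrillin-1, MCC, ATP2B2, a calcium pump of the plasma membrane, the pseudogene AOC4P and the imprinted gene ZIM2, which shares exons with PEG3 on the same strand, changed by -1.23, -1.13, -1.004, -1.02, -1.02 and -1.03. None of the genes named in this paragraph was called without DMSO replicate 1, where their adjusted p values ran from 0.0711 for LINC02482 to 0.283 for ASIC1.

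Where dexamethasone was present, no gene was called for KLA, as given above. Of the 1024 genes called higher without dexamethasone, 535 (52.2%) had a positive change in DexKLA minus Dex, and their median there was 0.01, against 0.49 without it. Of the 782 called lower, 243 (31.1%) had a negative change, with a median of 0.08, against -0.50. Over all genes 47.3% had the same sign in both. The KLA change with dexamethasone minus that without it leaned with transcript length, with a rank correlation of 0.576 over the 13166 genes. Genes called lower had a median length of 5826.5 bases, against 3130 bases for all genes. The part of length in these signs was not tested. The difference between the KLA changes with and without dexamethasone was itself tested, and 5 genes passed (0.038% of 13166; 4 or 0.0304% more positive with dexamethasone, 1 or 0.0076% more negative; 2922 at an unadjusted p under 0.05), all at an adjusted p of 0.0449 by edgeR. CYP24A1 (2.23 ± 0.37), PRKAR1A (0.82 ± 0.15), HIPK1 (1.11 ± 0.19) and MYCBP2 (1.21 ± 0.22) had the more positive change with dexamethasone, and RPPH1 (-2.66 ± 0.48) the more negative. HIPK1, a nuclear kinase, had 29.5, 28.02 and 22.2 CPM in KLA libraries, against 40.3, 43.6 and 37.1 CPM in DMSO libraries, and 33.4, 35.3 and 39.9 CPM in DexKLA libraries, against 28.8, 22.5 and 26.8 CPM in Dex libraries. MYCBP2, a large ubiquitin ligase, had 17.9 ± 2.02 CPM in KLA libraries and 27.6 ± 3.82 CPM in DMSO libraries, and 26.6 ± 4.31 CPM in DexKLA libraries and 18.2 ± 2.26 CPM in Dex libraries (SD, n = 3 each). RPPH1 went the other way in each pair, with 2.06, 2.55 and 1.66 CPM in DexKLA libraries, against 7.49, 4.01 and 5.06 CPM in Dex libraries. HIPK1, MYCBP2 and RPPH1 share exonic bases with HIPK1-AS1, MYCBP2-AS1 and AL355075.4. Their transcripts are 8070, 14992 and 340 bases long, and the part of length in their changes was not tested. The number of such genes varied with the processing, at 0 under DESeq2 size factors, voom and the replicate block and 705 under the DESeq2 test. IER3 and FGA missed the threshold, with differences of -0.91 ± 0.18 and 0.78 ± 0.17 (adjusted p = 0.0544 each); they were looked up after their values were seen.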

How the data were processed

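RNA-seq libraries were made from total RNA of HepG2 cells, 3 per group. The authors deposited 1 table of estimated counts per RefSeq transcript in steps of 0.5, not normalised, per the file's header and values; Trimmomatic, BWA 0.7.17, HOMER 4.10 and hg38 are named in the submitters' processing notes, with no roles given. For the fits each expected count was rounded to the nearest whole number; transcripts that carry no symbol (1.71 to 2.55% of totals) were left out, and the transcript with the highest total stood for each of 28256 genes, since reads can be listed under several transcripts. Genes passing edgeR's filterByExpr (13166) were fitted with 1 mean per group over all 12 libraries, which share 1 estimate of spread, by the quasi-likelihood test of edgeR 4.0.16 after TMM; adjusted p-values are Benjamini-Hochberg over all tested genes. SE is the absolute log2 change over the square root of F. Detection floors are 3 counts. DESeq2 1.42.0 and limma 3.58.1 (R 4.3.3), other scalings, filters, the replicate block, leaving out each library, a depth term, removal of the length trend (loess, span 0.3, per library), thinning to the shallowest library and, chosen after seeing the data, leaving out DMSO replicate 1 and KLA replicate 3 together were alternatives. Scripts were tested on simulated counts, with 99 genes changed by 1 and 100 by 2 on the log2 scale. Of these 81.8% and 99% were recovered, and 8.16% of the 196 calls were false. The simulation held no group shift linked to depth or transcript length, so it cannot speak for calls under such shifts.

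Named genes were the 12 largest rises and falls among called genes with mean log2 CPM of at least 1 and groups that do not overlap, up to 3 called members of smallest p per list and direction, fixed LPS pathway genes, and the 3 interaction genes of smallest p per direction; some of these are not reported here, and others are said to be chosen after their values were seen. The comparison and the gene lists were chosen with earlier results of these data known. Same-numbered libraries did not deviate together (1 of 18 pairs correlated above 0.1), and the main fit did not pair them. Low correlations cannot exclude a shared culture or batch, since deviations from group means also hold differences in depth and length trend. No pair of replicates was identical. Promoters are from RefSeq on GRCh38.p14; coordinates of genes are those of the deposited table (hg38).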

Additional observations from a re-analysis of the deposited data

Results flagged for a closer look

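For 5 genes the KLA change with dexamethasone (DexKLA minus Dex) differed from that without it (KLA minus DMSO) by edgeR's test of the difference itself, each with an adjusted p of 0.0449. The log2 difference was 2.23 for CYP24A1, 1.11 for HIPK1, 1.21 for MYCBP2, 0.82 for PRKAR1A and -2.66 for RPPH1. For CYP24A1 and PRKAR1A the DMSO group stood apart from the other groups, with means of 39.5 ± 18.4 and 343 ± 33.1 CPM, while HIPK1, MYCBP2 and RPPH1 had opposite changes in each pair (-0.60, -0.61 and 1.32 without dexamethasone, and 0.51, 0.60 and -1.34 with it). None of these 5 differences passed by edgeR once DMSO replicate 1 was left out. Over 13166 genes the difference leaned with transcript length, with a rank correlation of 0.576. HIPK1, MYCBP2 and RPPH1 transcripts are 8070, 14992 and 340 bases long.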

How the results depend on the processing

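The 1806 calls for KLA versus DMSO became 4 with a depth term, 1064 with the length trend removed, 5 without DMSO replicate 1 and KLA replicate 3 together, and 5 to 2363 when 1 library was left out; the cause was not tested. They stayed within 1.5 times the full count under the other scalings, tests and filters, thinning and the replicate block (1360 calls). All 1806 kept their sign in each fit without 1 library, but these genes were picked for their change in mostly the same libraries. Kept signs are therefore no separate support. DexKLA versus Dex had 0 calls in every fit but that without a filter, which gave 12, among them RPPH1 and RN7SK. The interaction count of 5 became 0 under DESeq2 size factors, voom, the replicate block, the depth term and without that pair, 230 under library size alone, 705 by the DESeq2 test, 1040 without a filter, 49 when thinned, 2 with the length trend removed, and 0 to 681 when 1 library was left out. The rank correlation of change with length, -0.467, was -0.316 without a filter, -0.271 with the depth term, -0.0325 with the length trend removed and -0.497 to -0.37 when 1 library was left out. Same-numbered libraries had correlations of -0.31 to 0.172 and 0 of 12 correlated best with its own number. DMSO libraries, at 3317740 to 5277463 counts, limit the weakly expressed genes.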
